A study of Homo sapiens with 4 samples.

Results

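Binding of the DEAH-box helicase DHX36 was examined on 5 mRNAs that themselves encode proteins of AU-rich elements (AREs), ELAVL1, ZFP36, ZFP36L1, ZFP36L2 and KHSRP. They were taken by symbol from a table of 26490 genes, in which each of the 5 is listed once. PAR-CLIP had been done in stable HEK293 cells, a human embryonic kidney line, that carry a tetracycline-inducible HA-Flag-DHX36-iso2 (FH-DHX36) or HA-Flag-DHX36-iso1-E335A (FH-DHX36-E335A, the helicase-dead mutant, written E335A below) transgene beside the endogenous gene, with 2 replicates per line. In both lines the transgene was induced for 15 h with 500 ng/ml of tetracycline, and crosslinking was at 365 nm for 5 min. Isoform and mutation differ together, so that their parts cannot be told apart. The table gives 1 value per gene and cell line with the replicates already joined. No replicate spread and no test between the lines could therefore be had, and the intervals below cover counting error only. The table holds binding and not expression, and the identity of the cell line was not checked from it.

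AREs are U-rich stretches, often with the pentamer ATTTA, in the 3′ UTRs of many short-lived mRNAs. They act through the proteins that bind them. ELAVL1, also called HuR, binds U-rich and AU-rich RNA and is known for stabilizing its mRNAs, whereas ZFP36 (tristetraprolin) and its paralogs ZFP36L1 and ZFP36L2 bind through tandem CCCH zinc fingers and recruit the CCR4-NOT deadenylase. KHSRP binds through KH domains, brings decay enzymes to ARE-containing mRNAs and also takes part in splicing and microRNA maturation. DHX36 was itself first purified on the ARE of PLAU mRNA and named RHAU for this, before its activity on G-quadruplexes, four-stranded structures of stacked guanines, was known. The 5 mRNAs are thus shown with both kinds of sequence, AU heptamers and runs of guanines.

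The positions below are from GENCODE release 44 on GRCh37, the build of the authors' mapping (hg19), and sites lie in the 3′ UTR of the canonical transcript unless stated otherwise. ELAVL1 (ENSG00000066044, chr19:8023457-8070525, 6 exons) and KHSRP (ENSG00000088247, chr19:6413113-6424822, 19 exons) lie on the minus strand and ZFP36 (ENSG00000128016, chr19:39897487-39900047, 2 exons) on the plus strand of the same chromosome. ZFP36L1 (ENSG00000185650, chr14:69254379-69259784) and ZFP36L2 (ENSG00000152518, chr2:43449541-43453745) are on the minus strand and have 2 exons each. The heptamer TATTTAT is a core that ZFP36 proteins are known to bind. It occurred 5 times in the ELAVL1 3′ UTR of 4910 nt, between positions 1604 and 1644 counted from the first base after the stop codon, and 3 times each in ZFP36 (708 nt), ZFP36L1 (1871 nt) and ZFP36L2 (1917 nt). KHSRP (1922 nt) had none, and 1 ATTTA. Each line shows 1 heptamer in capitals with 8 nt on either side.
ELAVL1, chr19:8026719-8026741, minus strand: tatttatgTATTTATttattgaa
ZFP36, chr19:39899839-39899861, plus strand: gacgacttTATTTATtctaatat
ZFP36L1, chr14:69254797-69254819, minus strand: tgttggatTATTTATtttagaaa
ZFP36L2, chr2:43450590-43450612, minus strand: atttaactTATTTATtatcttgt

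Runs of guanines were searched on the sense strand as 4 runs of at least 2 G, 1 to 7 nt apart, where the bases between runs may be any base, G included. A long stretch of G can thus count as more than 1 run. The 3′ UTR of each of the 5 mRNAs held such a match, 7 in ELAVL1, 2 in ZFP36, 3 in ZFP36L1, 3 in ZFP36L2 and 7 in KHSRP. For each mRNA the match with the highest share of G among those of at most 30 nt is shown, with each stretch of at least 2 G in capitals. The last 2 lines are the matches of at most 30 nt to the stricter pattern with runs of at least 3 G, in the KHSRP 3′ UTR and the ZFP36L2 5′ UTR.
ELAVL1, chr19:8024261-8024273, minus strand: GGGGGaGGGGaGG
ZFP36, chr19:39899539-39899550, plus strand: GGtGGGGGatGG
ZFP36L1, chr14:69255776-69255793, minus strand: GGcGGGGtGGagacccGG
ZFP36L2, chr2:43450054-43450068, minus strand: GGGGagtGGGGGGGG
KHSRP, chr19:6414836-6414853, minus strand: GGGGagtcGGGGGGcaGG
KHSRP, chr19:6413958-6413986, minus strand: GGGtGGGGGGGacttGGGGGcatgccGGG
ZFP36L2 5′ UTR, chr2:43453683-43453709, minus strand: GGGGGGGGcGGGccGGGcaccccGGGG

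Such matches are common and are not tied to binding sites here, since the table gives no cluster positions. Among 3′ UTRs within 10% of the same length, 93.4% held a match for ELAVL1, 63.7% for ZFP36, 79.5% for ZFP36L1 and 80.4% for both ZFP36L2 and KHSRP. The number in KHSRP was above that of 76.5% of the 1238 3′ UTRs of like length, while the other 4 mRNAs were near the middle, at 49.3% to 54.9%. The AU heptamer was rarer in these 3′ UTRs than matches with runs of at least 2 G. It was more common than matches with runs of at least 3 G, which 11.6% to 22.7% of them held. It was found in 70.5% of 3′ UTRs of like length for ELAVL1, 21.0% for ZFP36, 40.1% for ZFP36L1, 40.7% for ZFP36L2 and 41.2% for KHSRP, and the 4 mRNAs that held it had more copies than 94.7% to 98.5% of them. In the coding sequence (CDS) KHSRP stood apart, with 19 G-run matches in 2244 nt, more than 96.3% of 1526 CDSs of like length. ELAVL1 had 1 in its CDS, ZFP36 had 2, ZFP36L1 had 3 and ZFP36L2 had 6.

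**Figure D1:**
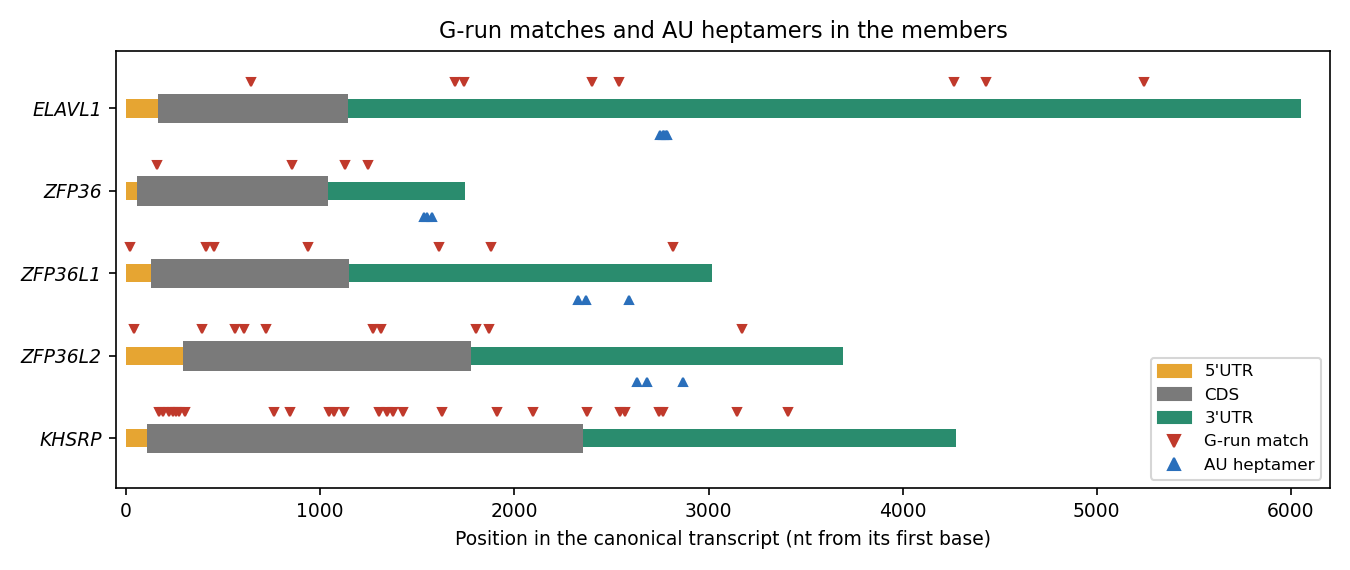
Canonical transcripts of the 5 mRNAs drawn to scale in nt from the first base, with 5′ UTR, CDS and 3′ UTR as colored boxes, G-run matches as red triangles above and TATTTAT heptamers as blue triangles below. KHSRP has 19 G-run matches in the CDS and no heptamer, while the 5 heptamers of ELAVL1 lie close together.

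With E335A all 5 mRNAs carried at least 1 cluster, a group of overlapping reads with the T-to-C conversions that mark crosslinks, beside 34.5% of all listed genes. With FH-DHX36 it was 4 of the 5, beside 22.4%. These shares cover every listed gene, whether or not HEK293 cells express it. The 4 mRNAs had clusters in both PAR-CLIPs, as 62.1% of the genes bound by E335A did, and ZFP36 was the one without an FH-DHX36 cluster. In both PAR-CLIPs every member with a cluster had at least 1 in the 3′ UTR, as did 78.4% of the genes with an E335A cluster and 52.5% of those with an FH-DHX36 cluster (27.0% and 11.7% of all listed genes). The totals were 8752127 crosslinked reads for E335A and 2160413 for FH-DHX36, a ratio of 4.05, and reads were listed only for genes with a cluster.

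KHSRP was the most heavily crosslinked of the 5. It had 21 clusters and 7474 crosslinked reads with FH-DHX36 (95% Poisson interval from 7306 to 7645), and 20 clusters and 6387 reads with E335A (6231 to 6546). It thus had more reads in the PAR-CLIP with fewer reads in all, as 607 of the 5669 genes with a cluster in both did (10.7%). By reads it held position 19 of 5930 genes with FH-DHX36 and 194 of 9131 with E335A.

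ZFP36L2 followed, with 10 clusters and 6187 reads with E335A (6034 to 6343) and 5 clusters and 608 reads with FH-DHX36 (561 to 658). Its position by reads was 206 with E335A and 796 with FH-DHX36. In crosslinked reads per 1000000 crosslinked reads of the PAR-CLIP (XPM), ZFP36L2 and KHSRP were at 707 (689 to 725) and 730 (712 to 748) with E335A, and these intervals overlap. With FH-DHX36 they were far apart, at 281 (259 to 305) and 3460 (3382 to 3539).

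ELAVL1 had 14 clusters and 1741 reads with E335A (1660 to 1825), and 4 clusters and 211 reads with FH-DHX36 (183 to 241). ZFP36L1 was lower, with 8 clusters and 433 reads (393 to 476) and with 3 clusters and 118 reads (97.7 to 141). ZFP36, the family member best known for the decay of cytokine mRNAs, had 1 E335A cluster of 42 reads (30.3 to 56.8) and was listed at 0 with FH-DHX36. Scaled to the FH-DHX36 total, 42 reads correspond to 10.4. The fewest reads listed there for a gene with a cluster were 6, and 0.118% of such genes had fewer than 10.4, so that a cluster of this size would be near the lowest that the FH-DHX36 table holds. The order was KHSRP, ZFP36L2, ELAVL1, ZFP36L1 and ZFP36 in both PAR-CLIPs.

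**Figure D2:**
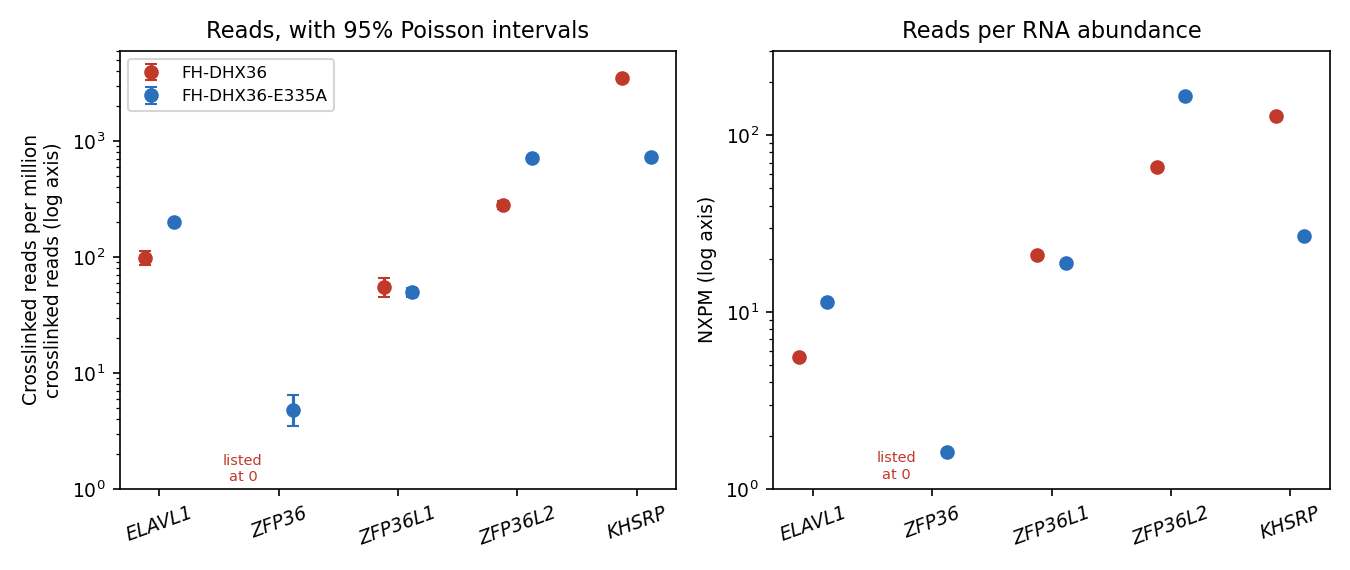
XPM, crosslinked reads per 1000000 crosslinked reads (left, bars are 95% Poisson intervals) and NXPM (right) of the 5 mRNAs on log axes, with FH-DHX36 in red and E335A in blue. KHSRP is higher with FH-DHX36, at 3460 against 730 XPM, and ZFP36L2 and ELAVL1 are higher with E335A.

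Set against RNA abundance, ZFP36L2 and not KHSRP led with E335A. NXPM, the XPM divided by mRNA abundance, is the authors' score for binding per RNA, and it is not divided by length. The NXPM of ZFP36L2 was 167 with E335A, position 250 of the genes with a cluster, and 66.3 with FH-DHX36, position 612. KHSRP had 26.9 with E335A, position 1758, and 128 with FH-DHX36, position 290. ZFP36L1, the fourth by reads, was the third by NXPM with E335A at 18.97, and it had 20.9 with FH-DHX36. ELAVL1 had 11.4 and 5.61, and ZFP36 had 1.61 with E335A. All members but ELAVL1 with FH-DHX36 and ZFP36 were above the median NXPM of genes with a cluster, which was 5.66 for E335A and 7.84 for FH-DHX36.

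The abundance behind these values was recovered from reads and NXPM, and the same value came out of both PAR-CLIPs for each of the 4 mRNAs bound in both. It was 27.1 for KHSRP, 17.4 for ELAVL1, 4.24 for ZFP36L2, 2.98 for ZFP36 and 2.61 for ZFP36L1, in the units of the authors' RNA-seq quantification, which Cufflinks gives per length. KHSRP and ELAVL1 were thus abundant, above 81.5% and 75.1% of the genes with an E335A cluster. The 3 ZFP36 mRNAs were in the lower part, above 27.5% to 41.0% of them. ZFP36 and ZFP36L1 had similar abundance and 42 and 433 E335A reads. ZFP36L1 and ZFP36L2 have transcripts of 3017 and 3693 nt, and 433 and 6187 reads.

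**Figure D3:**
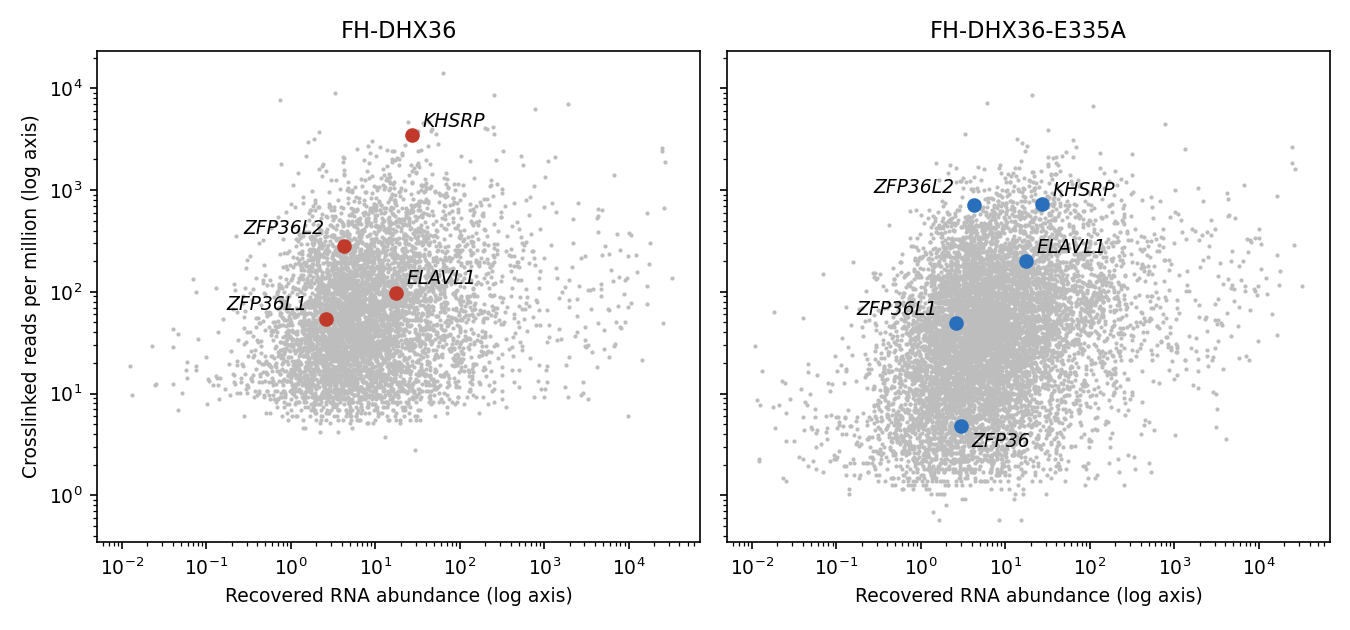
XPM (crosslinked reads per 1000000) against recovered RNA abundance on log axes for genes with a cluster (gray), with the members in color. ZFP36L2 lies high for its abundance of 4.24, next to KHSRP in reads with E335A, and ZFP36 lies low; 31 genes (FH-DHX36) and 57 genes (E335A) at or under an abundance of 0.01 are not drawn.

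Between the PAR-CLIPs the 4 mRNAs bound in both moved in different directions relative to the totals, and 2 of the 4 had a higher read share with E335A, beside 53.4% of all genes bound in both. The share of crosslinked reads on KHSRP was 4.74 times higher with FH-DHX36 than with E335A (95% interval from 4.58 to 4.90, from the exact binomial distribution of the reads). For ZFP36L2 it was 2.51 times higher with E335A (2.31 to 2.73), and for ELAVL1 2.04 times (1.76 to 2.36). The share of ZFP36L1 was 0.906 times that with FH-DHX36 (0.737 to 1.12), an interval that holds 1. This holds for all its reads, of which 192 with E335A had another annotation than UTR, CDS or intron. Its annotated regions were lower with E335A, at 0.559 times in the 3′ UTR (0.437 to 0.719). The CDS was at 0.279 times (0.153 to 0.512), from 26 and 23 reads.

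A difference of at least 2-fold was common among all 5669 genes with clusters in both, where 28.6% were higher with E335A and 24.8% with FH-DHX36. The counts of 2 and 1 among 4 mRNAs are read against that. KHSRP lay at the lower end, with a lower ratio of E335A to FH-DHX36 in 8.40% of these genes, while ZFP36L1 was at 43.0%, ELAVL1 at 72.1% and ZFP36L2 at 78.6%. The median ratio was 1.09, with quartiles of 0.503 and 2.25. The higher shares of ELAVL1 and ZFP36L2 with E335A were seen for reads and not for clusters. Their share of all clusters was 0.973 and 0.556 times that with FH-DHX36. These cluster ratios rest on 14 E335A and 4 FH-DHX36 clusters for ELAVL1, and on 10 and 5 for ZFP36L2. They have no interval, so that no opposite direction is read from them. Counted over exonic reads alone, the ratio of E335A to FH-DHX36 fell to 0.122 for KHSRP and 0.509 for ZFP36L1.

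**Figure D4:**
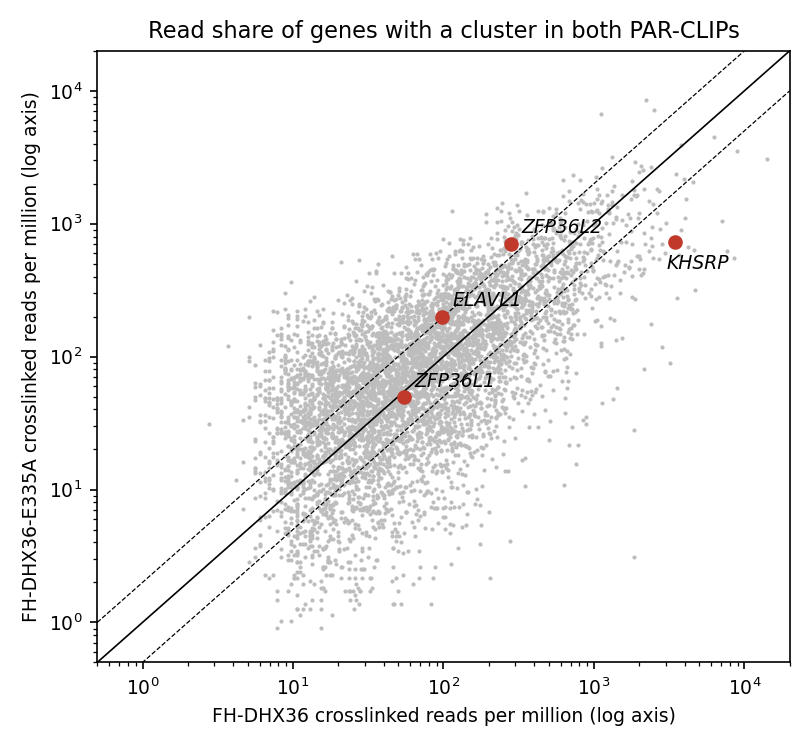
XPM (crosslinked reads per 1000000) with E335A against FH-DHX36, on log axes, for the 5669 genes bound in both PAR-CLIPs, with the 4 members in red, equality as a solid line and 2-fold differences as dashed lines. KHSRP lies below the lower dashed line, ZFP36L1 near equality, and ELAVL1 and ZFP36L2 at or above the upper dashed line.

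On all 5 mRNAs most exonic reads lay in the 3′ UTR, and KHSRP had the highest share in the CDS. Of the exonic reads (5′ UTR, CDS and 3′ UTR), the 3′ UTR held a median of 89.2% over the 5 mRNAs with E335A and of 86.2% over 4 mRNAs with FH-DHX36. Over all genes with exonic reads the medians were 73.6% and 42.4%.

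ZFP36L2 had 4802 E335A reads in 6 clusters of the 3′ UTR, which were 97.5% of its exonic reads (95% Wilson interval from 97.0% to 97.9%) and 77.6% of all its reads. A single 5′ UTR cluster of 57 reads and a single CDS cluster of 68 reads made up the other exonic reads. It was the one member with a cluster in the 5′ UTR, as 20.4% of genes with an E335A cluster had, and the G-rich match printed above lies in that region. Whether the cluster lies at this match is not known, since cluster positions are not given. With FH-DHX36, ZFP36L2 had 426 reads in 3 clusters of the 3′ UTR, 38 in 1 CDS cluster and none in the 5′ UTR. The regional NXPM of its 3′ UTR, scaled to all reads of that region, was 243 with E335A and 121 with FH-DHX36. Relative to the totals, reads of its 3′ UTR were 2.78 times higher with E335A (2.52 to 3.08), while those of the CDS were 0.442 times as high (0.293 to 0.675). The CDS held a smaller part of all exonic reads with E335A than with FH-DHX36. Scaled to all reads of the CDS, the regional NXPM of the ZFP36L2 CDS was closer, at 10.8 with E335A and 14.6 with FH-DHX36, from 68 and 38 reads. Reads of annotations without a column of their own numbered 144 with FH-DHX36 and 1260 with E335A.

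ELAVL1 had 1316 3′ UTR reads in 10 clusters and 234 CDS reads in 3 clusters with E335A. The 3′ UTR thus held 84.9% of exonic reads (83.0% to 86.6%), and it makes up 81.1% of the transcript. Per kb the regions were close, at 268 reads in the 3′ UTR and 239 in the CDS. With FH-DHX36 all 168 exonic reads were in 3 clusters of the 3′ UTR. No reads were listed in the 5′ UTR or introns of ELAVL1.

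ZFP36L1 had 215 reads in 6 clusters of the 3′ UTR and 26 in 1 CDS cluster with E335A, and 95 in 2 clusters and 23 in 1 cluster with FH-DHX36. The 3′ UTR held 89.2% (84.7% to 92.5%) and 80.5% (72.4% to 86.6%) of exonic reads. All 42 reads of ZFP36 were in its 3′ UTR. Its interval for that share reaches down to 91.6%, since the reads are few. No intronic reads were listed for any of the 3 paralogs, which have 2 exons each.

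KHSRP had 10 CDS clusters in each PAR-CLIP. With FH-DHX36 they held 2818 reads and the 4 clusters of the 3′ UTR 4308, or 39.5% and 60.5% of exonic reads. With E335A the CDS held 843 reads and the 3′ UTR 2634 in 3 clusters, or 24.2% and 75.8%. The CDS share differed by more than the counting intervals, from 38.4% to 40.7% with FH-DHX36 and from 22.8% to 25.7% with E335A. Relative to the totals, reads on the CDS were 13.5 times higher with FH-DHX36 (12.5 to 14.6) and those on the 3′ UTR 6.63 times (6.31 to 6.96). The PAR-CLIPs differ in this way as a whole, since the 3′ UTR held 51.4% of all exonic reads with FH-DHX36 and 71.9% with E335A. Regional NXPM, scaled to all reads of the region, was 169 with FH-DHX36 and 21.0 with E335A in the CDS of KHSRP. In its 3′ UTR it was 191 and 20.8, so that the CDS did not stand out by this score. The KHSRP CDS held 19 G-run matches, 8.47 per kb, and its 3′ UTR 7, 3.64 per kb. Whether reads lie at these matches was not tested.

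KHSRP was further the one member with intronic clusters, 6 with 291 reads for FH-DHX36 and 3 with 821 reads for E335A. The share of all genes with an intronic cluster was not computed, so that this is not read as particular to KHSRP. Of its E335A reads, 2089 in 4 clusters, or 32.7% (31.6% to 33.9%), had an annotation for which the table has no column, compared with 57 reads or 0.763% with FH-DHX36. Such reads were also found on the other members. They made up 44.3% of the E335A reads of ZFP36L1 from 1 cluster of 192 reads, 20.4% for ZFP36L2 and 11.0% for ELAVL1. A cluster of this kind was present on 45.4% of all genes with an E335A cluster and on 20.9% with FH-DHX36. The table does not say where these clusters lie.

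**Figure D5:**
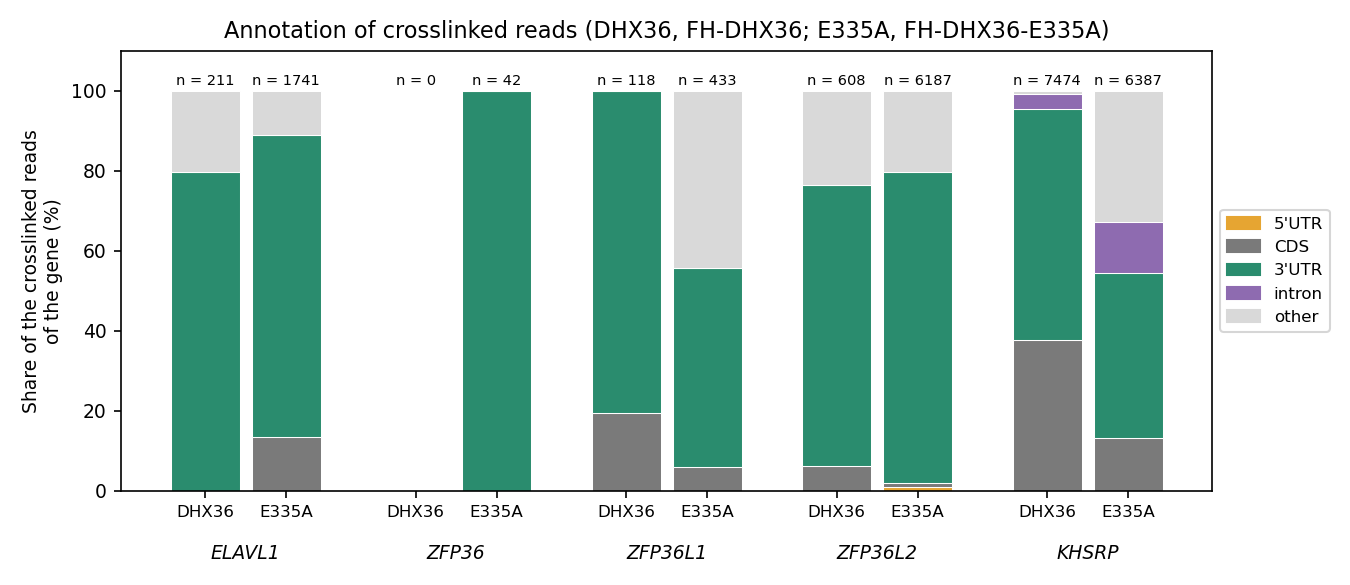
Share of the crosslinked reads of each mRNA by annotation, in percent, with the number of reads above each bar (DHX36 stands for FH-DHX36). The 3′ UTR is the largest part of every bar, KHSRP shows CDS and intronic parts, and reads of another annotation take 44.3% of ZFP36L1 with E335A.

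Reads per kb were higher in the 3′ UTR than in the CDS for all 5 mRNAs with E335A and for all 4 bound with FH-DHX36, as they were for 66.9% and 50.7% of genes with exonic reads. The size of the difference ranged widely. It was small for ELAVL1 with E335A, at 268 and 239 reads per kb, and for ZFP36 it rests on 1 cluster of 42 reads. ZFP36L2 had 2505 reads per kb in the 3′ UTR and 45.8 in the CDS with E335A, and KHSRP had 1370 and 376. With FH-DHX36 KHSRP had 2241 and 1256, and ZFP36L2 had 222 and 25.6. These values depend on the transcript taken. KHSRP-201 has a 3′ UTR of 764 nt in place of the 1922 nt of the canonical KHSRP-212, and 1 G-run match there in place of 7. All 3′ UTR reads of KHSRP divided by 764 nt give 3448 reads per kb with E335A and 5639 with FH-DHX36. Read positions are not given, so that the part of these reads within the shorter 3′ UTR is not known.

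Near copies of the members were few, except for KHSRP. Of the 20-mers of the canonical transcripts, 0.289% to 0.762% of those of ELAVL1, ZFP36, ZFP36L1 and ZFP36L2 also occur in another annotated gene, and at most 4 of those of any ZFP36 family mRNA occur in another member. For KHSRP it was 10.2%, of which most are in the processed pseudogene KHSRPP1, which is not listed in the table. Reads from these stretches are uncertain for KHSRP. The microRNA gene MIR3940, known to lie in an intron of KHSRP on the same strand, was listed with no clusters. Genes of long noncoding RNAs also overlap the members, by 512 nt on the same strand for ZFP36L1, by 890 nt on the opposite strand for ELAVL1 and by 826 nt on the opposite strand for ZFP36L2. Their part in the reads of these mRNAs was not tested.

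The mRNAs with the most similar profiles were found by the distance between log10 reads plus 1 in the 4 regions of both PAR-CLIPs, 8 values in all, among genes bound in both. Nearest to ELAVL1 were FAM136A, with 203 and 1311 reads for FH-DHX36 and E335A, and C5orf51. ZFP36L1 was nearest to USF2 and EPHA2, and ZFP36L2 to RAC1 and CALU. KHSRP had the least similar neighbors, at distances of 0.744 for MAZ and 1.103 for RCC1, against 0.157 for ELAVL1 and FAM136A. MAZ had 8790 reads with FH-DHX36 and 13381 with E335A.

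Other genes of the pathway showed binding as well. Of 22 further mRNAs of ARE-binding proteins, 20 had an E335A cluster and 17 an FH-DHX36 cluster, beside 34.5% and 22.4% of all listed genes, with medians of 2001 and 505 reads over those bound. Of the 17 bound in both, 3 had a read share at least 2-fold higher with E335A and 3 with FH-DHX36, beside 28.6% and 24.8% of all genes bound in both. HNRNPA2B1 had the most reads of this list in both PAR-CLIPs, 26851 with E335A and 30421 with FH-DHX36. Like KHSRP it thus had more in FH-DHX36, and its read share was 4.59 times higher there. HNRNPA0 had 18906 and 8531. The paralogs of the members were chosen after their values were seen. Among the ELAVL genes, ELAVL2, known as a neuronal protein, had 2225 and 644 reads and ELAVL3 and ELAVL4 had no cluster. The KHSRP paralogs FUBP1 and FUBP3 had 1184 and 3274 reads with E335A and 453 and 383 with FH-DHX36.

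Of 26 mRNAs for decay partners of these proteins, subunits of CCR4-NOT and the exosome, decapping factors and kinases of the pathway, 22 had an E335A cluster and 14 an FH-DHX36 cluster, again beside 34.5% and 22.4%. Here 7 of the 14 bound in both had a read share at least 2-fold higher with E335A and 1 with FH-DHX36, beside 28.6% and 24.8%. The deadenylase mRNAs CNOT6 and CNOT6L had the most E335A reads of this list, 3927 and 3687, and they had 479 and 166 with FH-DHX36. The median of 769 E335A reads over the bound decay partners compares with 1741 over the 5 members and 326 over all bound genes.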

How the data were processed

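PAR-CLIP libraries were made by the authors from 2 replicates per cell line. According to the methods of the paper, reads were mapped to hg19, PARalyzer (run through PARpipe, defaults kept) called the clusters, and GENCODE v19 gave their annotation. bcl2fastq 2.17.1 is named in the submitters' processing notes, and further versions are not given in the sources used here. In the deposited table, clusters and crosslinked reads are raw counts, and NXPM is a score that the authors normalized to the reads and to mRNA abundance. Whether the table holds the intersection of the replicates was not tested.

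The columns were read as deposited, and no column belonged to another sample. Abundance was recovered as XPM (crosslinked reads per 1000000) over NXPM, minus 0.001. This step was run on simulated data built with the same formula and constant. That run checks the arithmetic and not whether the authors used this formula. Region lengths and sequences are from the canonical transcripts of GENCODE release 44 on GRCh37, with the stop codon in the CDS. Ratios of read shares have exact binomial intervals, shares Wilson intervals and reads Poisson intervals, all at 95%. PCR copies are not independent molecules. With 1 value per cell line no p-value was computed. Python 3.11.15, numpy 2.4.6, pandas 2.3.3 and scipy 1.17.1 were used. All 5 members were named, as were the 2 genes of each list with the most FH-DHX36-E335A (E335A) reads, PLAU, and the 2 nearest profiles of each member bound in both. The members and lists were chosen with earlier results of these data known.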

Additional observations from a re-analysis of the deposited data

How the results depend on the processing

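Of 42 alternative values, 30 stayed within the counting interval or within 1.5 times the main count, and 10 moved. The other 2 reversed, in that the ratio fell on the other side of 1. The 30 include the ratios by deposited NXPM, which could not differ from the main ratios. The same abundance divides both PAR-CLIPs and cancels. Counted by clusters in place of reads, 0 of the 4 mRNAs bound in both had a higher share with E335A, compared with 2 by reads. The ratios of ELAVL1 and ZFP36L2 were then 0.973 and 0.556, from few clusters and without an interval. The cause was not tested. The median 3′ UTR share of exonic reads was 70.8% with FH-DHX36 and 76.9% with E335A when clusters were counted, and 75.6% with E335A over all crosslinked reads, where reads of introns and other annotations enter the denominator. The median rank of the members with E335A was 2295 by NXPM and 1234 by crosslinked reads. With runs of at least 3 G, 2 of the 5 3′ UTRs held a match in place of 5, those of ZFP36L2 and KHSRP. Among 3′ UTRs of like length, 22.7% held such a match for ELAVL1, 11.6% for ZFP36, 21.7% for ZFP36L1, 21.9% for ZFP36L2 and 21.6% for KHSRP. The KHSRP-201 lengths were chosen after seeing the data and changed no count. No paired analysis was possible because the columns carry no replicate, and for the same reason no replicate could be left out. The 42 reads of ZFP36 have a counting interval from 30.3 to 56.8.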

Other observations

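The mRNAs that ARE-binding proteins act on can be read from the same table. Of 21 mRNAs with a classical ARE, 12 had an E335A cluster and 9 an FH-DHX36 cluster, beside 34.5% and 22.4% of all listed genes. The transcription factor mRNA JUN had the most reads of this list in both PAR-CLIPs, 18335 with E335A and 3840 with FH-DHX36, in 20 and 19 clusters. MCL1, which encodes an inhibitor of apoptosis, had 12063 and 2853 reads in 24 and 17 clusters. PLAU, whose ARE served for the first purification of DHX36, had no cluster in either PAR-CLIP, nor did 8 other mRNAs of the list, most of them cytokine or immediate-early mRNAs. Reads are listed only for genes with a cluster, and mRNA abundance cannot be recovered for genes without one, so that low expression in HEK293 and absence of binding cannot be told apart for these. Of the 9 bound in both, 3 had a read share at least 2-fold higher with E335A and 1 with FH-DHX36, beside 28.6% and 24.8% of all genes bound in both.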
